A study of Mus musculus with 4 samples.

Results

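Piezo1 and Piezo2 are the 2 genes of the Piezo family, which encode the pore-forming subunits of mechanically gated cation channels. They were chosen by name, with their levels in these libraries already known, out of 17391 genes in the deposited count table. Each channel is a trimer that opens when the membrane is stretched or bent and lets calcium and other cations into the cell. PIEZO1 is known as the channel by which vessel walls, red cells and many connective tissue cells sense flow, pressure and stiffness. PIEZO2 is best known in touch-sensing neurons and Merkel cells, and in the kidney it has been described in mesangial and renin-lineage cells.

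The libraries are Drop-seq, a method that counts the 3′ ends of transcripts of single cells caught in droplets with barcoded beads. The cells were primary cultures of Gli1+ kidney cells, taken from male mice aged 12 weeks. All cultures spent 2 h without serum. The control, labelled 0 h, was harvested then and received no TGF-β, and the other cultures were treated for 6, 12 or 24 h with TGF-β at 1 ng/ml, which turns such cells towards myofibroblasts. Each time had 1 library, the labels name neither a strain nor the allele by which Gli1+ cells were found, and no culture was left without TGF-β for the longer times, so hours of treatment and hours in culture without serum cannot be told apart. The values below describe 4 libraries, with no test between conditions.

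The libraries held 192, 658, 1120 and 1328 barcodes at 0, 6, 12 and 24 h and 106826, 778793, 5687966 and 6166324 counts. Median depth was 489.5, 313.5, 3815.5 and 3379 counts per barcode, and no barcode sequence occurred in more than 1 library. At 6 h only 80 barcodes had 1000 or more counts, and these held 74.1% of all counts. The content of the library labelled 0 h did not match that label. Proximal tubule markers summed there to 16326 CPM, counts scaled to a common total per library, against at most 2.57 CPM in the treated libraries. Mesenchymal markers summed to 46.8 CPM there, against 1858, 3495 and 4617 CPM at 6, 12 and 24 h, with Pdgfrb, Col1a1, Col3a1, Dcn and Acta2 at 0. Every one of its 192 barcodes held a count of a tubule marker. Its Piezo values are therefore given as those of a library of tubule content, and the main comparisons are among the treated libraries.

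In GRCm38, the build of GENCODE M21 and of the mm10 alignment, Piezo1 (ENSMUSG00000014444.17) lies on chromosome 8 from 122481698 to 122551329 on the minus strand and spans 69632 bases, with up to 51 exons. Piezo2 (ENSMUSG00000041482.17) lies on chromosome 18 from 63010213 to 63387183, also on the minus strand, and spans 376971 bases with up to 54 exons. The 3′ end of Piezo1 overlaps Ctu2, a tRNA-modifying enzyme gene on the opposite strand, by 2441 bases. Whether the counting used strand is unknown, so reads of these genes in that stretch cannot be told apart. Ctu2 itself was low, at 12.8, 14.6 and 17.2 CPM at 6, 12 and 24 h. Within Piezo1, the snRNA gene Gm26497 had 1, 8 and 6 counts, or 1.28, 1.41 and 0.973 CPM, at the same times. Gm20388, a gene model on the opposite strand that covers all of Piezo1, and the unconfirmed models AC132378.1 and AC124391.1 inside Piezo2 were not analysed here. No 51-base stretch of the last 600 bases of any Piezo1 or Piezo2 transcript occurred, in the same sense, in a transcript of another gene. None occurred in the last 600 bases of the other member's transcripts either, whose remaining bases were not searched. Reverse complements were not searched, so this says nothing of genes on the opposite strand such as Ctu2 and Gm20388.

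Piezo2 was far higher at 12 and 24 h than at 6 h, while Piezo1 differed less in the library totals. Weighting every barcode equally brought the ratios of 12 h to 6 h close together, 7.88-fold for Piezo2 and 6.89-fold for Piezo1, and those of 24 h to 6 h were then 10.9-fold and 5.50-fold. Piezo2 had 30 counts at 6 h, or 38.5 CPM (25.99 to 55.0, as every range in parentheses an exact 95% interval that covers counting error only). The 12 h library had 1970, or 346 CPM (331 to 362), and the 24 h library 3019, or 490 CPM (472 to 507). The 3 treated libraries were in the order of their times, and none of their intervals overlapped. The share of all genes whose intervals lie apart in this way was not counted, so this does not set Piezo2 apart from them. The level at 12 h was 8.99-fold (6.28 to 13.4) that at 6 h, the level at 24 h was 1.41-fold (1.34 to 1.497) that at 12 h, and 24 h stood 12.7-fold (8.88 to 18.9) above 6 h. The library labelled 0 h held 1 Piezo2 count, or 9.36 CPM (0.237 to 52.2), an interval that overlaps that of 6 h. Against that single count the ratios were 4.12-fold (0.684 to 168) at 6 h, 37.0-fold (6.63 to 1462) at 12 h and 52.3-fold (9.38 to 2066) at 24 h.

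Piezo1 had 40 counts at 6 h, or 51.4 CPM (36.7 to 69.9). The 12 h library had 535, or 94.1 CPM (86.3 to 102), and the 24 h library 405, or 65.7 CPM (59.4 to 72.4). Its highest treated library was the one at 12 h, whose interval lay above those of 6 and 24 h, while the intervals of 6 and 24 h overlapped. How many of all genes have intervals apart was not counted here either. The 12 h level was 1.83-fold (1.33 to 2.59) that at 6 h, and the 24 h level was 0.698-fold (0.612 to 0.796) that at 12 h. At 24 h it was 1.28-fold (0.923 to 1.82) the 6 h level. The library labelled 0 h had 10 counts in 10 barcodes, or 93.6 CPM (44.9 to 172), with an interval that overlaps all 3 treated libraries.

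**Figure D1:**
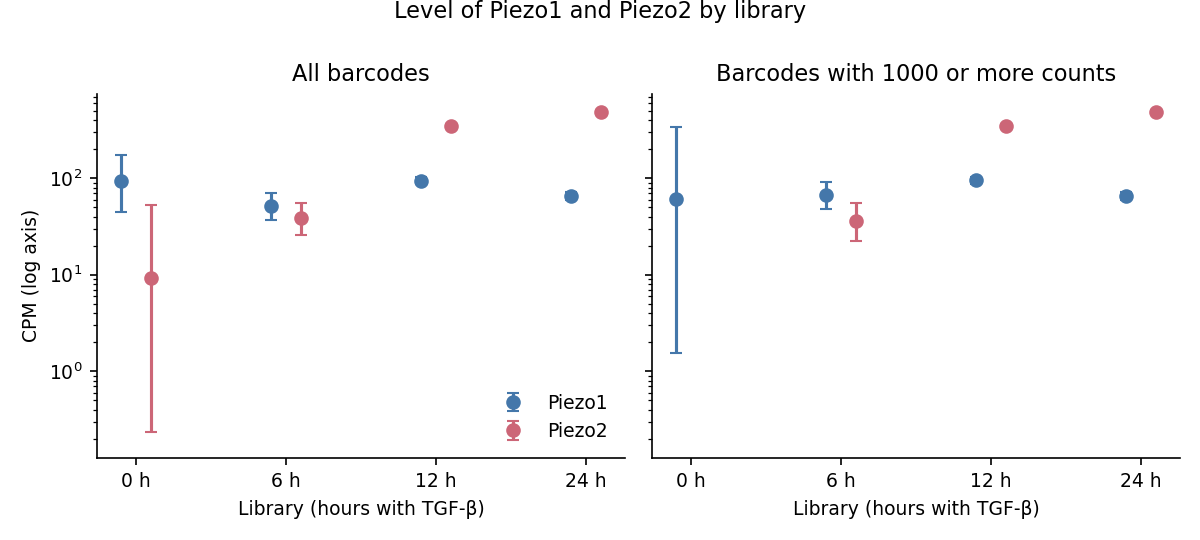
Level of Piezo1 and Piezo2 in CPM (log axis) by library, over all barcodes (left) and over barcodes with 1000 or more counts (right); points are library totals and bars exact 95% Poisson intervals. Piezo2 goes from 38.5 CPM at 6 h to 346 at 12 h and 490 at 24 h, while Piezo1 stays between 51.4 and 94.1 CPM in these libraries. Piezo2 had no count in the deeper barcodes at 0 h and has no point there.

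The balance between both genes needs no scaling between libraries. The count of Piezo2 over that of Piezo1 was 0.750 (0.451 to 1.23) at 6 h, 3.68 (3.34 to 4.06) at 12 h and 7.45 (6.72 to 8.29) at 24 h, and 0.1 (0.0023 to 0.703) in the library labelled 0 h. The 3 treated intervals do not overlap, and other pairs of genes were not examined for this. These are counts of 3′ ends, not divided by length, so they follow the change of the balance and not which gene has more transcripts.

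The members were chosen from these same contrasts, so their place among all genes is a description. At 12 h against 6 h, 1 of the 2 members, Piezo2, was at least 2-fold higher on the scale of log2(CPM + 10), where 4.79% of 2256 genes were higher and 4.34% lower (genes reaching 100 CPM in 1 or both libraries). Its log2 ratio of 2.88 was at rank 1 of them, where the median of all was 0.11. At 24 h against 6 h it was again called, at 3.36 and rank 2 of 2166 genes, 4.99% of which were higher and 4.06% lower. At 24 h against 12 h neither member was called. Piezo2 had a log2 ratio of 0.49 and rank 137 of 2146 genes, of which 1.35% were higher and 0.699% lower. Piezo1 stayed under 100 CPM in every treated library. Among genes with a mean of 20 CPM or more it had a log2 ratio of 0.76 at 12 h against 6 h, rank 595 of 6355, and of -0.46 at 24 h against 12 h, rank 6029 of 6469.

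Depth differed most at 6 h, and there it touched Piezo1 more than Piezo2. In barcodes with 1000 or more counts, Piezo1 stood at 67.5 CPM (48.0 to 92.3) in the 6 h library. The 12 h value was 94.9 CPM (87.0 to 103) and the 24 h value 65.3 CPM (59.0 to 72.1). The ratio of 12 h to 6 h was then 1.40-fold (1.01 to 2.00) and that of 24 h to 6 h 0.967-fold (0.695 to 1.38), so the latter crossed 1. The 578 shallower barcodes at 6 h held 1 of the 40 Piezo1 counts and 9 of the 30 Piezo2 counts. Piezo2 in the deeper barcodes stood at 36.4 CPM (22.5 to 55.6), then 345 CPM (330 to 361), then 489 CPM (472 to 507) in the order of the times, so its ratio of 12 h to 6 h was 9.50-fold (6.19 to 15.4). Within 12 h, Piezo2 lay between 336 and 389 CPM in each of 5 ranges of depth, from under 1000 to over 10000 counts per barcode. Within 24 h it lay between 471 and 515 CPM in the same ranges.

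Counts of both genes were spread over many barcodes. At 12 h Piezo2 was counted in 655 of 1120 barcodes, 138 of which had 5 or more and 21 had 10 or more. The barcode with the most held 30 of the 1970 counts, and the 10 highest held 7.61%. At 24 h it was counted in 819 of 1328 barcodes, 45 of which had 10 or more, and no barcode had more than 21. At 6 h it was in 22 of 658 barcodes, with at most 4 in 1 barcode. Piezo1 was in 25, 354 and 311 barcodes at 6, 12 and 24 h, with at most 5, 6 and 5 counts in 1 barcode.

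At equal depth the share of barcodes with a Piezo2 count was also higher at 12 and 24 h. After thinning each barcode to 500 counts, with 524, 158 and 325 shallower barcodes left out, 2 of 134 barcodes at 6 h had a Piezo2 count, or 1.49% (0.181 to 5.29). At 12 h 169 of 962 had one, or 17.6% (15.2 to 20.1), and at 24 h 207 of 1003, or 20.6% (18.2 to 23.3). In this thinning the 12 h and 24 h intervals overlap each other and lie above that of 6 h. The shares expected over all thinnings to 500 counts were 1.19%, 15.6% and 21.1% at 6, 12 and 24 h. The 12 h draw was thus above its expected share, and the overlap of 12 and 24 h may rest on the draw. Of 91 barcodes of the library labelled 0 h none had one, which allows a share of up to 3.30% by the limit of 3 counts and up to 3.97% by the exact interval. That library is of tubule content and rich in Malat1, so it does not measure background counts in the treated libraries. Unthinned, 1 of its 192 barcodes, or 0.521% (0.0132 to 2.87), had a count at a median depth of 489.5. Unthinned shares in the treated libraries were 3.34%, 58.5% and 61.7%.

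Thinned to 2000 counts, the share for Piezo2 was 10.0% (3.33 to 21.8) of 50 barcodes at 6 h, 47.3% (43.7 to 51.03) of 733 at 12 h and 60.8% (57.4 to 64.2) of 822 at 24 h. The 12 h and 24 h intervals do not overlap here, and the shares expected over all thinnings were 8.01%, 45.6% and 58.8% at 6, 12 and 24 h. For Piezo1 the shares at 500 counts were 6.59% (2.46 to 13.8), 1.49% (0.181 to 5.29), 4.26% (3.08 to 5.74) and 2.89% (1.94 to 4.13) at 0, 6, 12 and 24 h, and all of these intervals overlap. At 2000 counts they were 18.0% (8.58 to 31.4) at 6 h, 17.7% (15.0 to 20.7) at 12 h and 11.9% (9.79 to 14.3) at 24 h, where 12 and 24 h do not overlap.

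**Figure D2:**
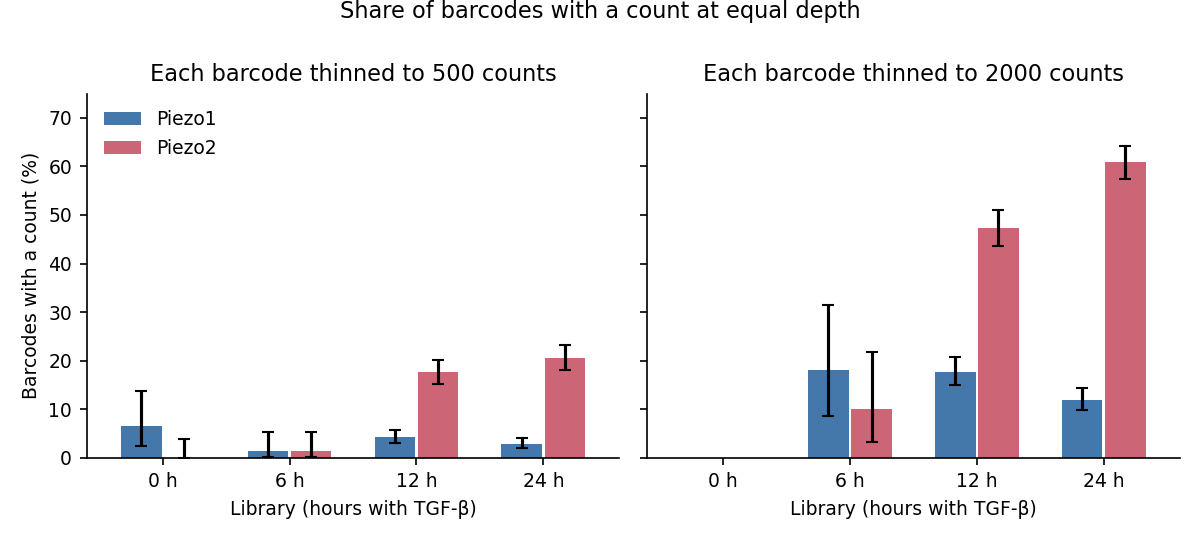
Share of barcodes with at least 1 count of Piezo1 or Piezo2 by library after thinning each barcode to 500 counts (left) or 2000 counts (right); bars are percentages and error bars exact 95% binomial intervals. Piezo2 goes from 1.49% at 6 h to 17.6% and 20.6% at 500 counts and from 10.0% to 47.3% and 60.8% at 2000 counts. No 0 h barcode reached 2000 counts.

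Among the barcodes thinned to 2000 counts, Piezo2 spread more widely than most genes of its level at 12 h and less so at 24 h. At 12 h 31.2% of barcodes had 1 count, 10.6% had 2 and 4.09% had 3. At 24 h the shares were 33.7%, 20.2% and 5.35%. The variance over the mean, which is 1 for counting noise alone, was 1.302 at 12 h (1.26 to 1.35 over 10 thinnings) against a median of 1.05 for genes within 1.5-fold of its mean, 546.5 of them at the median thinning, 2.93% of which exceeded it. At 24 h it was 1.18 (1.13 to 1.305) against 1.06, and 13.2% of such genes exceeded it. Without the barcode of most Piezo2 counts the values were 1.36 and 1.18. Piezo1 had 1.01 at 12 h and 0.979 at 24 h over the 10 thinnings, close to counting noise. The counts per barcode given above come from another single thinning. There the variance over the mean of Piezo2 was 1.26 at 12 h and 1.07 at 24 h. At 24 h 141 of 322 genes of like mean, Piezo2 among the 322, exceeded it. The size of the 24 h excess thus depended on the thinning.

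**Figure D3:**
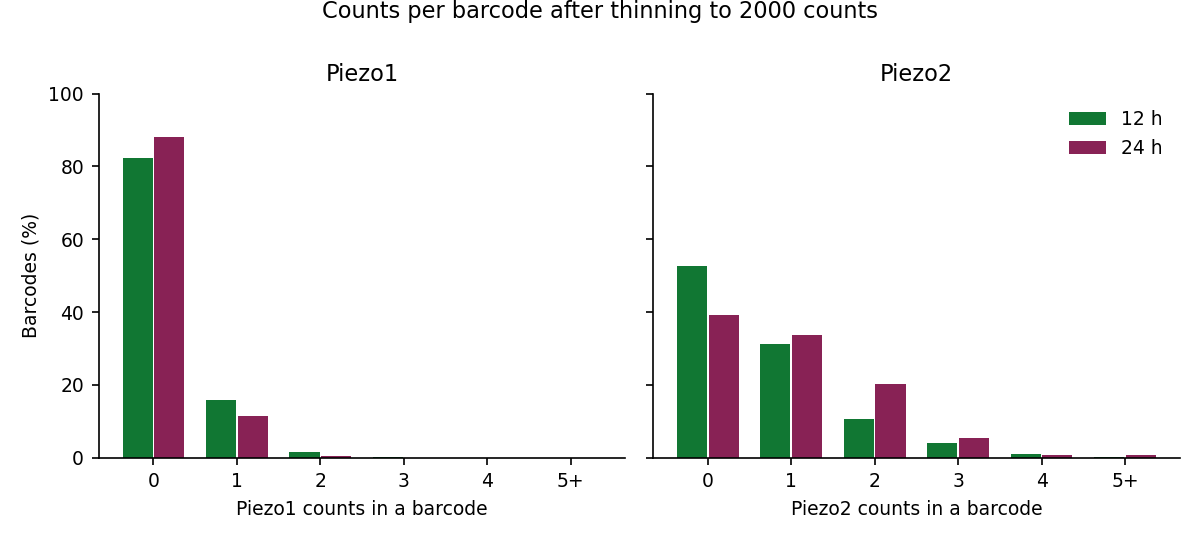
Percentage of barcodes by the number of Piezo1 (left) or Piezo2 (right) counts they hold after thinning to 2000 counts, in the 12 h library (733 barcodes) and the 24 h library (822 barcodes). Barcodes without Piezo2 make up 52.7% at 12 h and 39.2% at 24 h, and barcodes without Piezo1 82.3% and 88.1%.

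Piezo1 and Piezo2 were counted together about as often as independent genes would be. At 2000 counts, 64 barcodes at 12 h held both, where independence would give 61.5. At 24 h 66 held both, against 59.6. Piezo1 was present in 18.4% of barcodes with Piezo2 and 17.1% of those without at 12 h, and in 13.2% and 9.94% at 24 h. Across barcodes, Pearson's r between the 2 genes was 0.0132 at 12 h and 0.00211 at 24 h.

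Correlations of other genes with Piezo2 within a library were weak. They were computed over 733 barcodes at 12 h and 822 at 24 h on log2 values after thinning to 2000 counts, as the mean of 10 thinnings, for 3205 genes counted in at least 10% of barcodes of both. Barcodes of a library are not replicates, and at this depth counting noise limits r. The central 95% of genes lay between -0.0567 and 0.0544 at 12 h and between -0.0410 and 0.0420 at 24 h. No gene was above 0.1 in both libraries, 11 were at 12 h and 0 at 24 h. Across these genes, which are not independent, the 12 h and 24 h values had an r of 0.222 with each other.

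The genes highest by the lower of both values were Timp3 (0.159 at 12 h and 0.0990 at 24 h), an inhibitor of matrix proteases held in the extracellular matrix, and Malat1 (0.238 and 0.0944), a long non-coding RNA of the nucleus. Ctla2a, a cysteine protease inhibitor, had 0.105 and 0.0905. Pmepa1, a TGF-β-induced inhibitor of SMAD signalling, had 0.0861 and 0.0847. Meg3, another nuclear long non-coding RNA, had 0.147 and 0.0701. Nupr1, a stress-response regulator, had 0.112 and 0.0631. Thbs1, which can activate latent TGF-β, had 0.0825 and 0.0700, and Col1a2, a chain of type I collagen, had 0.0888 and 0.0535. Serpinb6b, Bgn, Mxd4 and Anxa5 completed the 12 highest. The lowest were Set, Fcf1, Fkbp3, Ddx39, Hnrnpa2b1, Tkt, R3hdm1 and Tmem165, between -0.0476 and -0.0791. With all counts of these barcodes and no thinning, Malat1 had r of 0.337 and 0.162 and Timp3 0.220 and 0.177. Of the 12 highest, Timp3, Malat1, Ctla2a, Meg3 and Serpinb6b stayed among the 12 highest under each of 4 other measures of likeness.

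**Figure D4:**
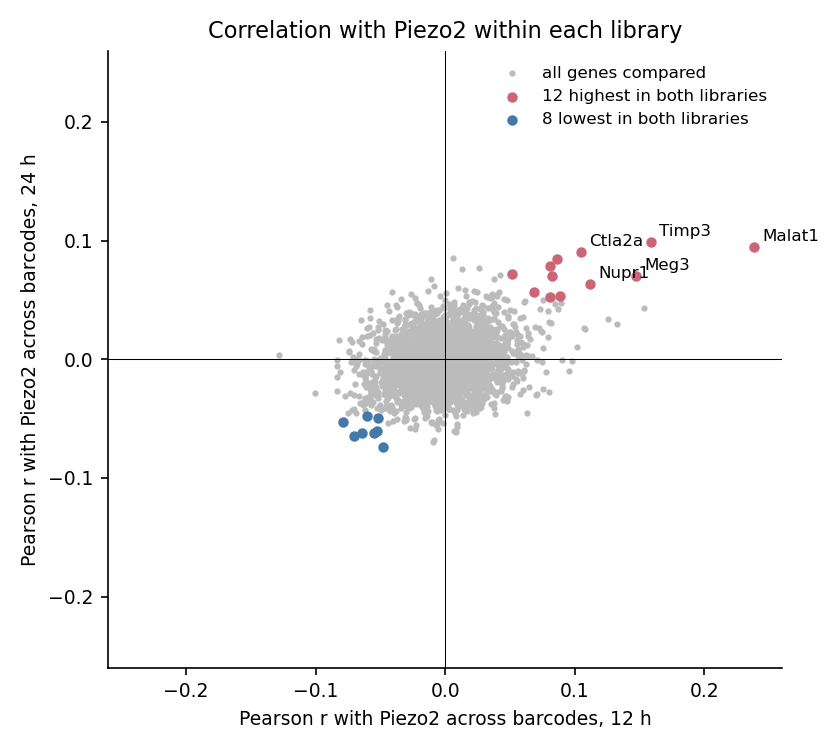
Pearson's r of each of 3205 genes with Piezo2 across barcodes in the 12 h library (x axis) and the 24 h library (y axis), after thinning to 2000 counts. Most points lie near 0 in both; Malat1, at 0.238 and 0.0944, and Timp3, at 0.159 and 0.0990, stand farthest up and right.

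Nuclear RNA content went with Piezo2 inside the 12 h library. At 12 h, Malat1 took 0.929% of counts in the 386 barcodes without Piezo2, 1.31% in the 307 with 1 or 2 counts and 2.12% in the 40 with 3 or more. At 24 h it took 1.16%, 1.31% and 1.29% in 322, 443 and 57 barcodes. Barcodes were then placed by their summed Malat1, Neat1 and Meg3 counts per 2000, a list chosen after the correlations were seen. At 12 h Piezo2 had 221 CPM (174 to 277) in 172 barcodes with fewer than 10 such counts, 247 CPM (198 to 305) from 10 to 19, 411 CPM (355 to 474) from 20 to 39 and 500.0 CPM (424 to 586) in 154 barcodes with 40 or more. At 24 h the same ranges had 375 CPM (270 to 507), 432 CPM (370 to 502), 501 CPM (453 to 553) and 596 CPM (516 to 685).

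Within these ranges the 24 h library was 1.70-fold (1.14 to 2.51), 1.75-fold (1.34 to 2.29), 1.22-fold (1.02 to 1.46) and 1.19-fold (0.961 to 1.48) above 12 h. The interval of the highest range includes 1. At 6 h only 50 barcodes reached 2000 counts, with 1, 1, 2 and 2 Piezo2 counts in the 4 ranges, so the same cannot be read there. Over whole libraries Malat1 took 0.947%, 1.13% and 1.24% of counts at 6, 12 and 24 h, and Neat1 and Meg3 were both at least 2-fold higher at 12 h than at 6 h. In the library labelled 0 h, of tubule content and with 1 Piezo2 count, Malat1 took 32.2% of counts. Neat1 stood at 3735 CPM there and Meg3 had 0 counts. Whether nuclear RNA content has a part in the Piezo2 difference was not tested beyond these ranges. Piezo1 had 84.3, 82.4, 95.2 and 110 CPM in the 4 ranges at 12 h, with 29 to 44 counts in each and overlapping intervals. At 24 h it had 53.6, 40.2, 71.1 and 48.2 CPM, from 6 to 57 counts. These are too few to tell whether it follows a like order. Barcodes were also split into 3 groups of equal size by the same sum. Top over bottom was then 1.08-fold (0.721 to 1.62) for Piezo1 and 2.37-fold (1.89 to 2.99) for Piezo2 at 12 h. At 24 h it was 1.48-fold (0.905 to 2.46) and 1.25-fold (1.05 to 1.48).

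**Figure D5:**
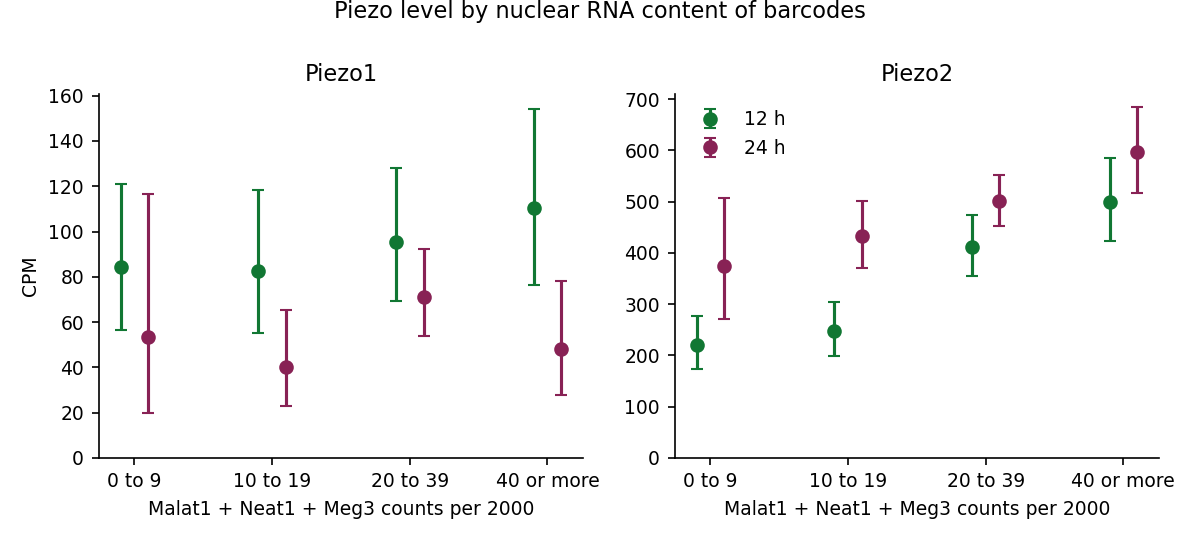
Level of Piezo1 (left) and Piezo2 (right) in CPM in barcodes thinned to 2000 counts and placed by their summed Malat1, Neat1 and Meg3 counts, at 12 h and 24 h; bars are exact 95% Poisson intervals. At 12 h Piezo2 goes from 221 CPM in the lowest range to 500.0 in the highest, and at 24 h from 375 to 596. The y axes differ.

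At 12 h against 6 h, genes of the longest span were more often called higher. Of 227 genes spanning 200 kb or more, as Piezo2 does, 8.81% were at least 2-fold higher at 12 h than at 6 h, with a median log2 ratio of 0.39. The share was 4.53% of 1368 genes under 10 kb, with a median of 0.10, against 4.42% and 0.15 over all genes with a mean of 20 CPM or more. In between, it was 3.74% of 2970 genes from 10 to 50 kb and 4.97% of 1508 from 50 to 200 kb, so the share did not rise steadily. Of genes of 200 kb or more, 8.07% of 223 were higher at 24 h against 6 h. At 24 h against 12 h 0 of 244 were, with a median of -0.11, which was also that of all genes. Piezo2, at 2.88 for 12 h against 6 h, lay far above the median of its span. The part of span in its difference was not tested.

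Barcodes richer in TGF-β target transcripts at 12 h also held more Piezo2. Each library's barcodes were ranked by the summed counts of a list after thinning to 2000 counts and split into 3 groups of equal size, which are ranges of a score and not cell types. By 16 TGF-β targets, among them Smad7, Pmepa1 and Fn1, Piezo2 had 449 CPM in the top group at 12 h and 258 CPM in the bottom group, 1.74-fold (1.39 to 2.18). By 16 contractile genes the ratio was 1.45-fold (1.17 to 1.81), and by focal adhesion genes 1.25-fold (1.01 to 1.55). Abundant genes weigh most in such sums. Over the 12 h library, the contractile genes Cald1, Tpm1 and Myh9 had 3458, 1616 and 901 CPM, but Acta2 112 and Tagln 2.99. Among the TGF-β targets, Fn1 had 2862, Pmepa1 846 and Smad7 88.8 CPM. The 24 h library gave 1.17-fold (0.985 to 1.40) by TGF-β targets, 1.12-fold (0.938 to 1.33) by contractile genes and 1.11-fold (0.927 to 1.32) by focal adhesion genes, and these intervals include 1. Whether the libraries differ in this was not tested. The top group by TGF-β targets at 12 h was shallower before thinning, with a median of 4956 counts against 6937. Larger gaps stood behind other splits given next, of 3999.5 against 7725 for other channels and 4633.5 against 8070 for proliferins at 24 h. Barcodes of equal score were split by their order in the deposited counts. By G2 and M phase genes at 24 h, with a median score of 0 in both groups, the median depths were 3174 against 10262.5. The order of ties thus went with depth there, and sparse lists have many ties. The part of depth and of ties in these ratios was not tested.

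By fibrillar collagens the ratio was 1.05-fold (0.846 to 1.29) at 12 h and 1.36-fold (1.14 to 1.62) at 24 h, and the latter was 1.13-fold with 2 groups in place of 3 and 1.08-fold with thinning to 1000 counts. By proliferins it was 0.836-fold at 12 h and 0.915-fold at 24 h, and by the chemokines and Vcam1 0.834-fold and 0.830-fold at 12 and 24 h. Of these 4 intervals, 3 included 1. The other, of the chemokines at 24 h (0.697 to 0.987), did not, but that ratio was 1.03-fold with thinning to 1000 counts, and the 12 h ratios were 1.16-fold for the chemokines and 1.01-fold for the proliferins. G2 and M phase genes were too sparse for such a split, with a median score of 0 in the top and the bottom group at 24 h, and their ratios are not given. YAP and TEAD genes, calcium signalling genes, other channels and partners gave 1.20-, 0.923-, 1.20- and 0.973-fold at 12 h and 1.01-, 1.02-, 1.11- and 1.20-fold at 24 h. The interval of the partners at 24 h (1.01 to 1.42) alone left out 1 among these 8. With thinning to 1000 counts the 12 h ratios lay on the other side of 1 for YAP and TEAD genes (0.891-fold), other channels (0.891-fold) and partners (1.10-fold), and the 24 h ratio did for calcium genes (0.980-fold). Piezo1 was low for such a split, with 28 to 58 counts in a group, and each of its 22 intervals by these lists included 1.

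Partners and regulators of the Piezo channels that were measured at 6 and 12 h differed by less than 2-fold between these libraries. By library totals, the interval of the ratio of 12 h to 6 h left out 1 for Atp2a2 and for Anxa6 (1.31-fold, 1.09 to 1.59). The share of all genes for which it does was not counted. Genes with a mean of 20 CPM or more had a median log2 ratio of 0.15. Of 11 listed, 10 were in the table and 6 had a mean of 20 CPM or more at 6 and 12 h, of which 0 were 2-fold higher or lower, where 4.42% of 6355 genes of that level were higher and 2.85% lower, so that 6 genes are too few to differ from that share. Mdfic, an auxiliary subunit that slows inactivation of the channel, had 19.3, 23.0 and 17.7 CPM at 6, 12 and 24 h. Atp2a2, the SERCA2 calcium pump that binds PIEZO1, had 66.8, 120 and 98.1 CPM, or 1.80-fold (1.35 to 2.43) more at 12 h than at 6 h. Anxa6, an annexin, had 161, 210 and 237 CPM, Cdh2, N-cadherin, 143, 155 and 134 CPM, and Mtmr2, a lipid phosphatase that restrains PIEZO2 currents, 37.2, 41.7 and 29.5 CPM. Tmem120a had 61.6, 71.2 and 54.2 CPM. Nedd4l, a ubiquitin ligase, Stom and Mdfi were below 22 CPM in each treated library, and Tmem150c had at most 1 count. At 24 h against 12 h 0 of 6 were called, with 0.665% of 6469 genes higher and 0.757% lower.

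Other channels linked to mechanical force were lower-lying or changed less than Piezo2. Of 15 in the table, 6 were measured at 6 and 12 h and 1 was called higher, Pkd2. Beside it, 4.42% of 6355 genes of that level were higher and 2.85% lower, and 6 genes are too few to differ from that share. Pkd2, polycystin-2 of the primary cilium, had 56.5, 123 and 119 CPM at 6, 12 and 24 h, or 2.18-fold (1.61 to 3.03) more at 12 h than at 6 h. Tmem63b, an osmosensitive channel, had 37.2, 76.8 and 54.5 CPM, and Pkd1, polycystin-1, 20.5, 35.9 and 39.7 CPM. Trpm7, a channel fused to a kinase, had 122, 147 and 129 CPM. Tmem63a and Tmem87a were between 18.3 and 28.1 CPM. Lrrc8a, a subunit of the volume-regulated anion channel, had 5.14, 12.7 and 12.3 CPM, from 4, 72 and 76 counts. Kcnk2, a stretch-gated potassium channel, had 8.99, 10.4 and 5.51 CPM, from 7, 59 and 34 counts. Their ratios of 12 h to 6 h were 2.46-fold (0.922 to 9.29) and 1.15-fold (0.526 to 2.99), with intervals that include 1. Trpv2, Trpv4, Trpc1, Trpm4, Tmc1, Kcnk10 and Scnn1a had at most 11 counts in any treated library. The median log2 ratio of the 6 measured was 0.45 at 12 h against 6 h, where all genes of that level had 0.15. The list gave 0 of 5 calls at 24 h against 12 h, where 0.665% of 6469 genes were higher and 0.757% lower. It gave 0 of 6 at 24 h against 6 h, where 3.77% of 6238 genes were higher and 3.06% lower.

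Among genes that carry a calcium signal onward, few were called, and the list is too short to be set apart from the share over all genes. Of 16 measured, 1 was 2-fold higher at 12 h than at 6 h, Itpr3, an inositol trisphosphate receptor that releases calcium from stores, with 46.2 and 120 CPM, or 2.60-fold (1.86 to 3.74), beside 4.42% of all genes of that level. Itpr2, of the same family, was 2.21-fold (1.47 to 3.50) higher, just under the limit on the scale with the pseudocount. Nfatc1, a transcription factor freed by calcineurin, had 27.0, 36.7 and 12.5 CPM at 6, 12 and 24 h and was the 1 of 16 called lower at 24 h against 12 h, beside 0.757% of all genes. Rcan1, a target of that factor family, had 12.8, 8.26 and 9.41 CPM. At 24 h against 6 h 0 of 14 were called, beside 3.77% of all genes higher and 3.06% lower.

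Lists of the programmes with which PIEZO1 is commonly linked, stiffness sensing and myofibroblast formation, went different ways at 12 h against 6 h. Of 12 YAP and TEAD genes measured, 0 were called, with a median log2 ratio of 0.36. Of 21 focal adhesion genes, 3 were higher, Itga5, Itgb5 and Actn1, and 0 lower, with a median of 0.49. Of 9 contractile genes, Myh9 was higher and Acta2 and Myl6 lower. Of 12 TGF-β targets, Ltbp2, Nox4, Junb and Fn1 were higher, with a median of 0.85. Of 6 fibrillar collagens 4 were higher, with a median of 1.33, and of 5 measured in the list of chemokines and Vcam1 4 were higher, with 1.16. The 3 proliferins were lower, with -1.10, as were 15 of 16 G2 and M phase genes, with -1.61. The shares over all genes are those given for the partners, 4.42% higher and 2.85% lower. Among the 3 nuclear RNAs, 2 were higher. At 24 h against 12 h, Acta2 and Myl6 were higher among the contractile genes and Col3a1 among the collagens, while Itga5, Itgb3, Junb, 8 of 10 G2 and M phase genes and the 1 proliferin measured were lower, beside 0.665% of all genes higher and 0.757% lower. None of the YAP and TEAD genes, the chemokine genes or the nuclear RNAs was called there.

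Genes whose course over the treated libraries lay nearest to Piezo2 were found by the distance of log2(CPM + 10), centred over the 3 libraries, among 2165 genes at 100 CPM or more in any of them. With 3 points many genes can have a like course, so this is a list of names with values. Prss23, a serine protease, was nearest at a distance of 0.467, with 78.3, 402 and 756 CPM at 6, 12 and 24 h. Nupr1 followed at 0.512, with 289, 1336 and 2179 CPM. Col3a1, a fibrillar collagen, had 27.0, 173 and 428 CPM. Medag, a gene linked to adipocyte development, had 7.70, 63.5 and 133 CPM. Ccl7, a chemokine, Ltbp3, a latent TGF-β binding protein, Vcam1, a leukocyte adhesion molecule, and Ltbp2, a microfibril protein, completed the 8 nearest, all between 5.23- and 7.76-fold higher at 12 h than at 6 h. Across barcodes, r with Piezo2 was -0.0131 and -0.0309 for Col3a1 and -0.0119 and -0.0109 for Vcam1 at 12 and 24 h, whereas Nupr1 was among the 12 highest correlations, so genes of a like course differed in their correlation inside the libraries.

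Markers of the cell types best known for PIEZO2 differed in level, beside 38.5, 346 and 490 CPM of Piezo2 itself. Merkel cell markers summed to 3.85, 1.58 and 1.297 CPM at 6, 12 and 24 h over 5 genes in the table, with Krt18 at 0 in each. Sensory neuron markers summed to 27.0, 22.2 and 26.4 CPM over 8 genes, of which Tubb3 gave 15.4, 18.5 and 24.0 CPM. Ntrk2 was at 0 in each of these libraries. Schwann markers summed to 5.14, 19.3 and 13.3 CPM. Juxtaglomerular and mesangial markers summed to 104, 123 and 89.0 CPM, of which Serpine2, which many fibroblasts express, gave 98.9, 121 and 86.0, and Ren1, renin, had 0 counts in every library. Endothelial markers summed to 3.85, 8.09 and 6.49 CPM, macrophage markers to 7.70, 4.04 and 2.92 CPM and loop, distal tubule and collecting duct markers to at most 1.28 CPM. Podocyte markers summed to 43.7, 111 and 175 CPM, of which Synpo, also an actin-binding protein of other contractile cells, gave 41.1, 109 and 172, with Wt1 at 0. Whether any of these cell types has a part in the Piezo2 level was not tested.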

How the data were processed

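The authors deposited a table of raw counts, whole numbers for every gene in every barcode. STAR 2.5.3a and the build mm10 are named in the submitters' processing notes. Not given in the sources used here: the counter, annotation, strand setting, barcode filter and whether UMIs were collapsed. All 3298 barcodes were used, and the library of each was read from its column name. Scrublet called 9, 18 and 14 barcodes doublets at 6, 12 and 24 h, and they were kept. Its calls, also at 0 h, moved with the numerical library in use, which was held to 1 setting. The shallower of barcodes 1 base apart numbered 0, 11, 140 and 150, and were kept too.

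CPM were taken from each library's summed counts. CPM has exact Poisson intervals, ratios exact conditional binomial ones and shares exact (Clopper-Pearson) ones, all at 95% and for counting error only. With 1 library per time no test was made. Calls are 2-fold on log2(CPM + 10), which understates differences of low genes. A count of 0 was read as up to 3 counts. The members, lists and rules were chosen with earlier results of these data known. Named genes are the members, the 12 highest and 8 lowest correlations, the 8 nearest courses, and members of the fixed lists, leaving out mitochondrial, ribosomal protein and predicted genes. Genes overlapping the members were named as well. The nuclear RNA list, the Piezo2 to Piezo1 balance and the spread without the barcode of most counts were chosen after the data were seen.

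Alternatives were other barcode sets, TMM and DESeq2 factors (the latter from genes with 10 or more counts in both libraries), other totals, equal weight per barcode, other thinning depths, other correlation measures and other floors. The calls, intervals and correlations were tested on simulated data. The analysis ran in R 4.3.3 (DESeq2 1.42.0, edgeR 4.0.16) and Python 3.11.15 (matplotlib 3.10.9, scanpy 1.11.5, scipy 1.17.1, pandas 2.3.3 and numpy 2.4.6).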

Additional observations from a re-analysis of the deposited data

How the results depend on the processing

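The Piezo2 ratio of 12 h to 6 h stayed between 7.88 and 10.1 under 9 alternatives, that of 24 h to 6 h between 10.9 and 14.3, and that of 24 h to 12 h between 1.38 and 1.55, where TMM factors gave 1.54 and DESeq2 factors 1.55. With equal weight per barcode the Piezo1 ratios were 6.89 for 12 h over 6 h, 0.799 for 24 h over 12 h and 5.50 for 24 h over 6 h; at 6 h 578 of 658 barcodes had fewer than 1000 counts and held 1 Piezo1 count. Shares depend on the depth by construction. For Piezo1 they were 18.0% at 6 h at 2000 counts, 8.21% and 17.7% at 12 h and 6.00% and 11.9% at 24 h at 1000 and 2000 counts, 31.6% at 12 h and 23.4% at 24 h unthinned, and 2.20% at 0 h in another thinning without near barcodes, of which that library had none, so the draw alone differs. For Piezo2 they were 10.0% at 6 h at 2000 counts, 27.9% and 47.3% at 12 h and 37.1% and 60.8% at 24 h at 1000 and 2000 counts, and 58.5% and 61.7% unthinned. Of the 12 genes of highest correlation, 5 were among the 12 highest by 12 h alone, and between 8 and 10 under the other 5 measures.

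Counts of genes 2-fold apart moved with the floor. With 50 CPM they were 211 higher at 12 h over 6 h, 38 lower at 24 h over 12 h, and 186 higher and 144 lower at 24 h over 6 h. With 200 CPM they were 53 higher and 50 lower, 7 lower, and 55 higher and 42 lower in the same order. TMM and DESeq2 factors each gave 7 lower at 24 h over 12 h, against 15. With thinning to 1000 counts, the Piezo2 ratio of the top to the bottom group at 12 h was 0.891 by other channels, 0.891 by YAP and TEAD genes and 1.16 by chemokines, each on the other side of 1 from its value at 2000 counts. At 24 h it was 1.08 by fibrillar collagens (1.13 with 2 groups in place of 3) and, again across 1, 1.03 by chemokines. The cause of these shifts was not tested. No paired analysis was possible because each time has 1 library. Depth limits the 6 h library most, with 30 and 40 counts of the members, and the 0 h library, with 1 and 10.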
